A study of Egretta garzetta and Nycticorax nycticorax with 12 samples.

Results

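The olfactory epithelium of the 6 little egrets (*Egretta garzetta*), 3 nestlings and 3 adults, was compared across all annotated genes. The birds were taken by species and stage from the sample labels, and were 6 of the 12 birds of the study, which also sampled a night heron. Genes were taken without regard to their values. Of 16585 annotated genes, the 132 olfactory receptor (OR) genes were set aside from the gene counts, which left 16453. Of these, 14841 averaged 0.02 TPM or more over the 6 birds and were tested. OR genes at that level stayed in the test and its adjustment, which covered 14960 genes. TPM, transcripts per 1000000, is a level that is already divided by transcript length and by the total of the library. A gene symbol was paired with 255 identifiers, mostly of genes with a known part in vision or eye development, and 249 of these were tested.

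Nestlings 1 to 3 had a body length under 15 cm and olfactory bulbs that had not developed. No 2 of them shared a nest. Adults 4 to 6 were over 50 cm long, with olfactory bulbs of normal size, and were aged by plumage. No treatment is described for these wild birds, and every bird was its own library of 150 base read pairs. Stage and capture site cannot be told apart, because the 2 stages were not caught at the same site.

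The olfactory epithelium lines part of the nasal cavity. It holds ciliated sensory neurons that carry OR proteins, supporting cells that wrap them, basal stem cells that replace both throughout life, and mucus glands in a connective tissue layer below. Odorant binding in the cilia opens a cyclic nucleotide-gated channel, and in a growing bird the tissue also gains neurons, matrix and vessels. Gene roles given below are known mainly from mammals and chicken. In a piece of tissue, fewer cells of a type and less RNA per cell cannot be told apart.

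Between 10996511 and 16326012 read equivalents (coverage times coding length over read length) lay on annotated genes per bird, and 13230 to 13870 of the genes outside the OR set were above 0. The number of genes above 0 was 13491 ± 328 in nestlings and 13401 ± 156 in adults (mean ± SD, n = 3 each, two-sided exact permutation p = 0.8, where 0.1 is the smallest p that 3 birds against 3 allow). The 10 highest genes took 7.66% to 16.7% of all TPM. Coverage of the last exon over that of the first, a sign of RNA quality, was higher in every adult than in every nestling. Its median log2 ratio over 7493 genes was 0.62, 0.69 and 0.59 in nestlings 1 to 3 and 0.72, 0.75 and 0.73 in adults 4 to 6, a difference of -0.096 (exact permutation p = 0.1). Over the 2722 genes averaging 50 TPM or more, the order held only narrowly, with nestling 2 at 0.593 and adult 4 at 0.595. The part of this ratio in the results below was not tested.

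Adult 5 stood apart from the other 5 birds. Among the 8858 genes that averaged 10 TPM or more, it was the lowest of the 6 birds in 4136 (46.7%). Adult 6 was the highest in 2535 (28.6%). These counts used TPM without the rescaling described below. In adult 5, the median log2 ratio of genes to their geometric mean was -0.25, against -0.017 to 0.15 in the others. The 100 highest genes took 44.9% of TPM in adult 5 and 34.2% to 38.4% in the others. The part of this in the counts with adult 5 lowest, here and below, was not tested. Over the 11669 genes that averaged 1 TPM or more, the Spearman correlation between birds was 0.936 to 0.962 within nestlings, 0.877 to 0.906 within adults and 0.870 to 0.969 between the stages. Adult 5 and nestling 1 stood at 0.924, against 0.870 to 0.882 for adult 5 with each other bird. The most similar pair of all was nestling 3 and adult 4, at 0.969. The adults thus resembled each other less than adult 4 resembled any nestling. All birds share the annotation and the scale to a fixed total, and the genes are not independent replicates.

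**Figure D1:**
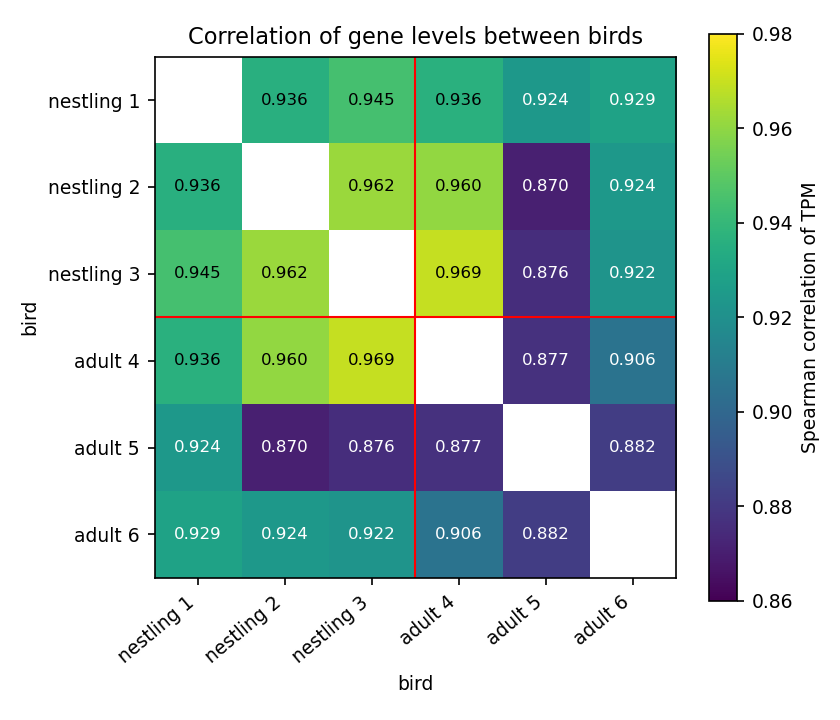
Spearman correlation of TPM between each pair of the 6 birds over 11669 genes, with the red lines dividing nestlings from adults. The 4 lowest values belong to adult 5 (0.870 to 0.882), and adult 4 lies with nestlings 2 and 3 (0.960 and 0.969).

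The tissue label was checked against markers that had a symbol. The olfactory neuron markers were low. CNGB1, a subunit of the olfactory cyclic nucleotide-gated channel that rods also use, was at 0.787, 0.480 and 3.66 TPM in nestlings 1 to 3 and at 1.53, 0.337 and 2.48 TPM in adults 4 to 6. SLC24A4, the exchanger that ends the calcium signal in olfactory cilia, was at 0.322 to 1.10 TPM. The summed level of the OR genes was 7.11, 1.38 and 47.8 TPM in nestlings and 31.0, 1.52 and 28.6 TPM in adults. These 3 measures were low in every bird, and the stages overlapped in each. Other defining genes of olfactory neurons and supporting cells had no symbol here and were not examined.

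Epithelium and connective tissue were plain in every bird. The 4 epithelial markers (GRHL2, GRHL3, KLF4 and MUC1) summed to 223 to 286 TPM in nestlings and 164 to 275 TPM in adults. The 6 connective tissue markers summed to 23812 to 42887 TPM in nestlings and 10374 to 69552 TPM in adults, nearly all from COL1A1, the main chain of type I collagen. The photoreceptor markers summed to at most 1.53 TPM, with GNAT1, rod transducin, at 0 in all 6 birds, and the muscle marker CACNA1S reached at most 0.221 TPM. The pigment cell markers MITF and TRPM1 summed to 14.6 to 22.0 TPM and the lymphoid markers IKZF1 and FASLG to 5.24 to 20.1 TPM. The 5 lens markers summed to 6.20 to 12.7 TPM. None of these sums separated the stages, and adult 5 had the lowest lymphoid, pigment cell, photoreceptor and olfactory neuron sum.

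The comparison of nestlings with adults asks which genes differ in the nose of the growing and the grown egret. No gene passed the threshold in either direction (0 of 14841, 0% each way; limma on log2(TPM + 0.1), Benjamini-Hochberg adjusted p under 0.05, 3 birds against 3), and the smallest adjusted p was 0.857. At an unadjusted p below 0.05, 256 genes (1.72%) had a higher mean in nestlings and 91 (0.613%) a higher mean in adults. Limma's voom on read equivalents also called 0 genes and gave 242 and 108 at an unadjusted p below 0.05.

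By the order of single birds, 844 genes (5.69%) were higher in every nestling than in every adult and 282 (1.90%) were higher in every adult. Groups without overlap are frequent with so few birds, where the smallest exact permutation p is 0.1. These counts alone therefore show no stage difference. With a mean difference of at least 4-fold as well, 37 genes (0.249%) remained on the nestling side and 27 (0.182%) on the adult side. The median log2 difference over all genes, nestling minus adult, was 0.14. Rescaling each bird by the median ratio of its genes to their geometric mean moved that median to 0.017, and the counts without overlap became 608 (4.10%) higher in nestlings and 590 (3.98%) higher in adults. At 4-fold, rescaling left 33 (0.222%) and 29 (0.195%). The unadjusted counts after rescaling were 213 (1.44%) and 197 (1.33%). Of the genes without overlap, 527 of the 844 and 260 of the 282 kept that order after rescaling.

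Adult 5 had a share in many of these genes. It was the lowest of the 6 birds in 550 of the 844 genes higher in every nestling, and the highest in 116 of the 282 genes higher in every adult. By the choice of these genes, the lowest bird of the first set and the highest of the second had to be an adult. Without adult 5, the median difference over all genes was 0.038. Of the 37 genes at least 4-fold higher in nestlings, 19 were still so without adult 5, and of the 27 at least 4-fold higher in adults, 22 were.

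The genes with a symbol are described first, since their products are known. The most abundant was COL1A1 (Ega_R015956), at 41989, 22070 and 23878 TPM in nestlings 1 to 3 and 32674, 67385 and 9708 TPM in adults 4 to 6. It was the highest gene outside the OR set in 5 of the 6 birds, and adults 5 and 6 were the extremes on either side. The log2 difference was 0.017 ± 0.80 (standard error), the annotated model being a 2-exon fragment of 360 coding bases. AQP1, a water channel of epithelium and vessels, was even across the birds, at 1211 to 1963 TPM in adults and 1525 to 1661 TPM in nestlings (log2 difference 0.027 ± 0.26).

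VIM (vimentin, the intermediate filament of mesenchyme), LUM (lumican, a matrix proteoglycan) and GJA1 (connexin 43) came next among structural genes. VIM was at 1601, 1183 and 1195 TPM in nestlings and 1384, 2064 and 733 TPM in adults. LUM was at 505, 1475 and 929 TPM in nestlings and 1537, 1726 and 488 TPM in adults. In both, adult 5 was the highest bird and adult 6 the lowest, so that the adults enclosed the nestlings. GJA1 was at 859, 588 and 650 TPM in nestlings and at 881, 846 and 354 TPM in adults, with adult 6 lowest again.

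No gene with a symbol passed the threshold, and none of the 249 had an unadjusted p below 0.05, with or without rescaling. By limma, 165 had a higher mean in nestlings and 84 in adults, with a median difference of 0.17 against 0.14 over all genes (0.042 after rescaling, against 0.017). In 13 genes (5.22%) every nestling was above every adult, and in 6 (2.41%) every adult was above every nestling, against 5.69% and 1.90% of all genes tested. After rescaling these counts were 5 and 9 of the 249, against 4.10% and 3.98% of all genes tested. The 13 were RXRA, PRDM1, COL4A1, HDAC1, BMP7, RAB3GAP1, BCL11B, PROX1, SEMA5B, FZR1, RRM1, TULP3 and CASP2, and the 6 were SMAD1, IMPG2, ARR3, BMPR1B, HSF4 and STRA6. The 5 left after rescaling were PRDM1, HDAC1, PROX1, FZR1 and CASP2. The 9 on the adult side were IMPG2, BMPR1B, HSF4 and STRA6 and, only after rescaling, SLC24A2, RNF2, RPL24, RAB18 and DNAJC19.

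The smallest p among them was that of RXRA, the retinoid X receptor that pairs with retinoic acid and other nuclear receptors. Its level was 34.5, 36.3 and 31.3 TPM in nestlings 1 to 3 and 24.0, 27.9 and 19.7 TPM in adults 4 to 6. The nestlings lay above all adults, with adult 6 lowest, and the log2 difference was 0.52 ± 0.23 (limma adjusted p = 0.965). After rescaling the difference was 0.40 and the groups overlapped. Every other symbol-paired gene shared that adjusted p or a higher one. RXRA lies on scaffold 417, bases 820115 to 858755, in 9 coding exons.

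PRDM1, a repressor that ends proliferation in several cell lineages, was at 8.15, 10.4 and 10.8 TPM in nestlings and 4.34, 5.12 and 7.94 TPM in adults. COL4A1, a collagen of basement membranes, was at 177, 194 and 183 TPM in nestlings and 150, 159 and 86.4 TPM in adults. HDAC1, a histone deacetylase, was at 62.8, 71.7 and 68.7 TPM in nestlings and 56.9, 44.7 and 56.6 TPM in adults. In these 3 genes the groups did not overlap, and the lowest bird was a different adult in each. The log2 differences were 0.78 ± 0.37 for PRDM1, 0.53 ± 0.26 for COL4A1 and 0.37 ± 0.20 for HDAC1. Only COL4A1 of the 3 lost its separation after rescaling.

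The 10 genes named on each side averaged 1 TPM or more. VSX1, with a higher mean in nestlings, and HSF4 and STRA6, with a higher mean in adults, averaged less and were left out. Their p was smaller than that of some genes named. In the remaining 6 of the 10 genes named on this side, single adults reached the nestlings. MAP3K1, a kinase of stress-activated MAP kinase signalling, was at 47.3, 52.0 and 56.7 TPM in nestlings and 51.3, 21.8 and 26.4 TPM in adults. Adult 4 lay among the nestlings, and the difference was 0.75 ± 0.33. CEP290, a protein of the ciliary transition zone, was at 4.26, 11.7 and 11.02 TPM in nestlings and 7.61, 1.95 and 3.14 TPM in adults. Here nestling 1 lay below adult 4, and the difference was 1.16 ± 0.63 with all birds and 0.73 without adult 5.

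MUC1, a membrane mucin of epithelial surfaces, was at 108, 203 and 99.8 TPM in nestlings and 86.6, 18.2 and 113 TPM in adults. GRHL2, a transcription factor that keeps epithelial junctions, was at 27.2, 35.9 and 38.5 TPM in nestlings and 21.6, 8.25 and 33.3 TPM in adults. Adult 5 was by far the lowest bird in both, and adult 6 lay among the nestlings. Without adult 5 the difference of MUC1 went from 1.20 to 0.39 and that of GRHL2 from 0.88 to 0.32. PVRL1 (nectin-1, an adhesion molecule) and DLG1 (a scaffold protein of cell junctions) differed by 0.61 ± 0.31 and 0.42 ± 0.23.

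On the adult side the smallest p belonged to GNGT2, the gamma subunit of cone transducin. It was at 201, 111 and 154 TPM in nestlings and 159, 269 and 339 TPM in adults, and adult 4 lay among the nestlings. The log2 difference was -0.69 ± 0.34 (limma adjusted p = 0.965), over a model of 123 coding bases in 1 exon. In every bird GNGT2 had the highest TPM of the light response genes.

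IMPG2, a proteoglycan around photoreceptors, was at 1.34, 0.689 and 0.943 TPM in nestlings and 1.40, 2.13 and 2.31 TPM in adults. ARR3, cone arrestin, was at 8.45, 6.32 and 4.69 TPM in nestlings and 9.36, 9.05 and 9.05 TPM in adults. BMPR1B, a receptor for bone morphogenetic proteins, was at 1.98, 1.97 and 2.34 TPM in nestlings and 4.14, 3.47 and 2.44 TPM in adults. All adults were above all nestlings in the 3 genes, with log2 differences of -0.92 ± 0.51, -0.53 ± 0.35 and -0.63 ± 0.43. For IMPG2 and ARR3, nestling 1 came close to the lowest adult, and for BMPR1B nestling 3 did. After rescaling the groups overlapped in ARR3.

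MERTK, a receptor with which cells take up dying neighbours, was at 55.4, 25.1 and 26.8 TPM in nestlings and 36.1, 80.4 and 51.1 TPM in adults. Nestling 1 exceeded adults 4 and 6, and the difference went from -0.66 to -0.36 without adult 5. SMAD1, which carries the BMP signal to the nucleus, was at 31.8, 29.8 and 31.7 TPM in nestlings and 31.9, 33.2 and 62.5 TPM in adults. There was no overlap, but the gap between adult 4 and nestling 1 was small adult 6 alone stood clear, and rescaling brought the groups to overlap. RPL24, a ribosomal protein, was at 1318, 1379 and 1465 TPM in nestlings and 1376, 1910 and 1909 TPM in adults.

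OLFM3, a secreted olfactomedin of neural tissue, was at 17.1, 8.84 and 10.1 TPM in nestlings and 10.8, 19.7 and 33.4 TPM in adults, with nestling 1 above adult 4. SLC4A10, a bicarbonate transporter of neurons, and SH3PXD2B, an adaptor of podosomes in connective tissue cells, differed by -0.77 ± 0.54 and -0.41 ± 0.29. In both, adult 5 was the highest bird, and without it the differences were -0.43 and -0.11.

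**Figure D2:**
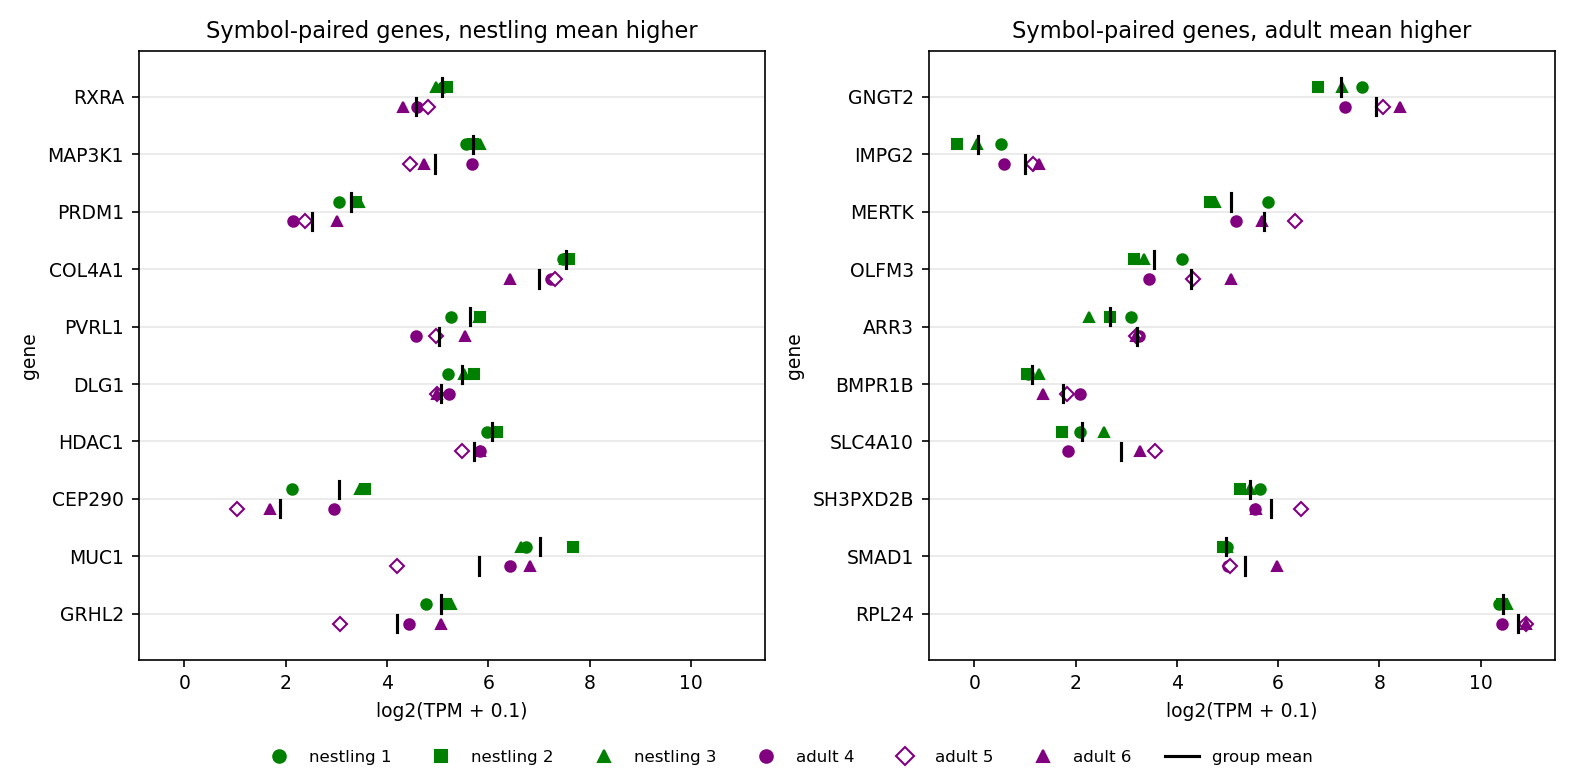
Level of the 10 genes with a symbol, an average of 1 TPM or more and the smallest p in each direction, as log2(TPM + 0.1). Each bird is 1 point, and a bar stands at each group's mean. On this scale, without rescaling, the groups do not overlap in RXRA, PRDM1, COL4A1 and HDAC1 on the left and in IMPG2, ARR3, BMPR1B and SMAD1 on the right. The open diamond of adult 5 lies lowest in MAP3K1, HDAC1, CEP290, MUC1 and GRHL2.

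The genes with a symbol were grouped by function, and a group is given by its counts and its median. The median over all genes was 0.14 with all birds, 0.038 without adult 5 and 0.017 after rescaling. Each group median is to be read beside the one of the same setting. Counts without overlap are to be read beside 5.69% of all genes higher in every nestling and 1.90% higher in every adult. After rescaling these shares were 4.10% and 3.98%. Of all 249 genes with a symbol, 165 had a higher mean in nestlings, to be set beside the counts of each group. Of the 19 cilium genes tested, 17 had a higher mean in nestlings, and 0 had an unadjusted p below 0.05. Their median difference was 0.39 (0.27 after rescaling). The summed level was 425, 490 and 600 TPM in nestlings 1 to 3 and 517, 296 and 457 TPM in adults 4 to 6. Adult 5 was the lowest bird in 15 of the 19, and without it the median was 0.081.

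IFT88, a carrier of ciliary cargo, showed the pattern with 25.3, 43.8 and 51.9 TPM in nestlings and 46.4, 14.3 and 37.8 TPM in adults. BBS4, of the complex that loads ciliary membrane proteins, was at 17.5, 21.5 and 29.0 TPM in nestlings and 22.9, 6.21 and 14.5 TPM in adults. In both the stages overlapped and adult 5 was lowest. TULP3, which brings receptors into the cilium, was the one cilium gene without overlap (5.26% of the 19). It was at 13.7, 13.8 and 22.8 TPM in nestlings and 13.0, 12.1 and 11.9 TPM in adults. After rescaling its groups overlapped too.

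The 7 genes of epithelial surfaces had a median difference of 0.78 over all birds and -0.0073 without adult 5, with 5 higher in nestlings and 2 in adults. Their summed level was 422 to 508 TPM in nestlings, 374 TPM in adult 4, 210 TPM in adult 5 and 537 TPM in adult 6. AQP5, a water channel of glands, was at 212, 200 and 179 TPM in nestlings and 200, 25.3 and 250.4 TPM in adults. Only adult 5 departed from a narrow range, and the difference went from 0.86 to -0.19 without it. KLF4, a transcription factor of surface epithelium, ran the other way and overlapped, at 139, 33.6 and 69.7 TPM in nestlings and 44.6, 142 and 107 TPM in adults.

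Among 18 transcription factors of neural and eye development, 15 had a higher mean in nestlings, with a median difference of 0.41 (0.26 without adult 5). SOX2, a factor of neural and epithelial stem cells, was at 101, 163 and 143 TPM in nestlings and 141, 11.5 and 133 TPM in adults. PAX6, a factor of eye, nose and brain development, was at 3.46, 7.63 and 9.42 TPM in nestlings and 8.91, 0.332 and 6.94 TPM in adults. Both were lowest in adult 5 and otherwise overlapped, and without adult 5 their differences were -0.039 and -0.32. PROX1 and BCL11B, factors of neural differentiation, were the 2 members without overlap (11.1% of the 18), BCL11B only before rescaling. PROX1 was at 2.97, 3.63 and 3.28 TPM in nestlings and 2.61, 1.02 and 2.43 TPM in adults.

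Of the 13 chromatin and transcription genes, 12 had a higher mean in nestlings, with a median difference of 0.30 (0.12 without adult 5). In 8 of the 13 adult 5 was the lowest bird, and HDAC1 was the member without overlap (7.69% of the 13). The 6 retinoic acid genes were split, with a median of 0.33 (-0.14 without adult 5). RXRA was higher in every nestling before rescaling, whereas STRA6, a cellular importer of retinol, was at 0.133, 0.109 and 0.389 TPM in nestlings and 0.4996, 0.436 and 0.722 TPM in adults. These 2 members of the list pointed in opposite directions, STRA6 at a level near the detection limit.

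Of the 28 light response genes tested, out of 33, 17 had a higher mean in adults and 11 in nestlings, with a median of -0.19 (-0.34 without adult 5). The 5 that were not tested were at 0 in every bird, apart from RGR, an opsin of the pigment epithelium, at 0.106 TPM in nestling 2. IMPG2 and ARR3 were the 2 members with every adult higher (7.14% of the 28, against 1.90% of all genes). After rescaling IMPG2 and SLC24A2 were, against 3.98% of all genes. RH1, rod opsin, was at 0.737, 1.13 and 1.05 TPM in nestlings and 1.20, 0.536 and 1.53 TPM in adults, and the stages overlapped.

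The 21 neuronal surface and synapse genes had a median difference of -0.060, opposite in sign to that of all genes, with 10 higher in nestlings and 11 in adults. The medians of the 13 WNT signalling genes (0.14), the 13 genes of TGF-beta and BMP signalling (0.14) and the 15 genes of connective tissue and matrix (0.12) lay near that of all genes. In the last group, adult 6 was the lowest bird in 10 genes and adult 5 the highest in 6. Without adult 5 the median there was 0.38. ADAMTS18, a matrix protease, was at 28.8, 33.5 and 34.0 TPM in nestlings and 41.5, 33.7 and 2.83 TPM in adults, with adult 6 alone low. The 10 lens genes tested had a median of 0.24 (-0.20 without adult 5).

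**Figure D3:**
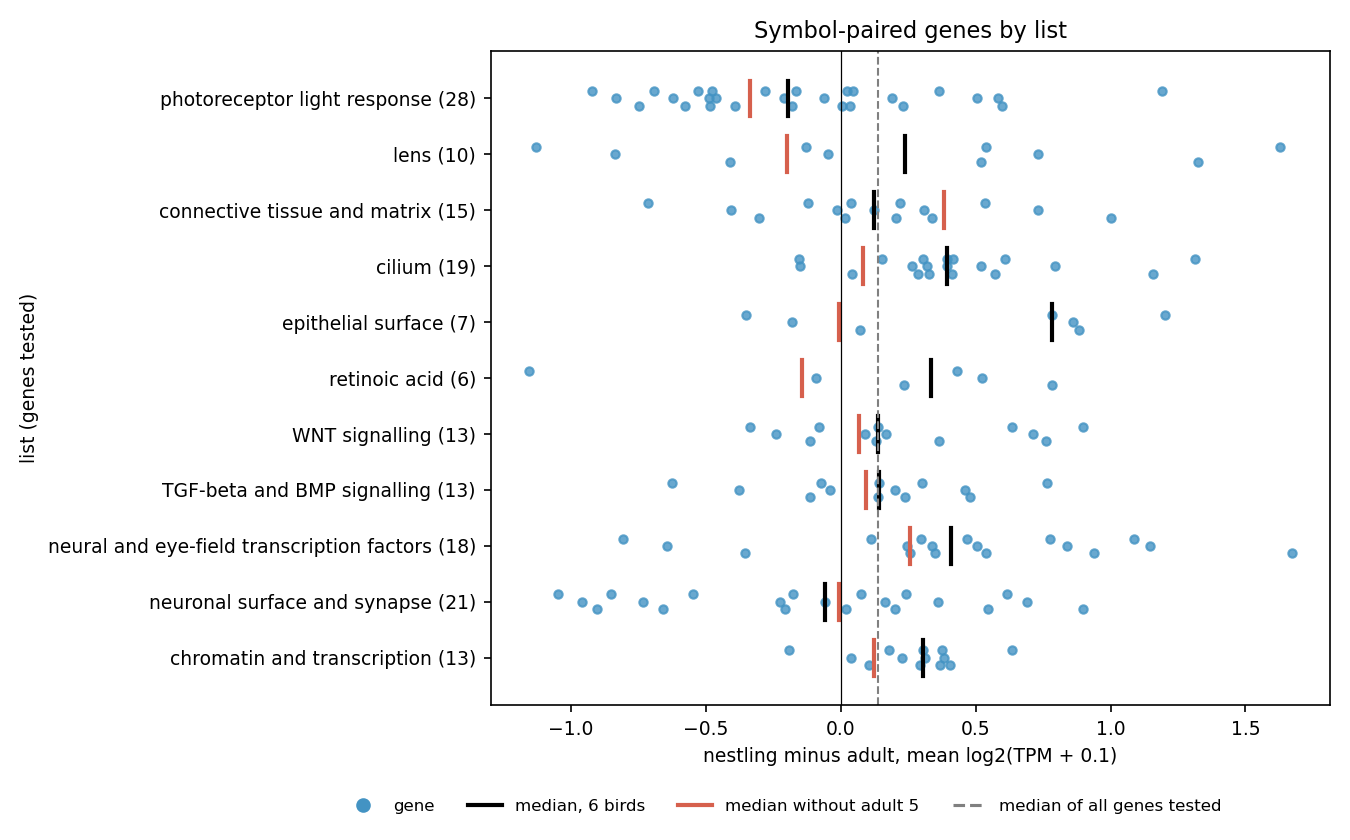
Difference between nestling and adult mean log2(TPM + 0.1) for each gene with a symbol, by group, with the number of genes tested in brackets. Black bars are group medians over all 6 birds and red bars the medians without adult 5. The median moves from 0.78 to -0.0073 for epithelial surface and from 0.39 to 0.081 for cilium. The dashed line is the median of 0.14 over all genes with all 6 birds. Without adult 5 that median was 0.038, which is not drawn.

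The strongest genes of each direction were taken from those averaging 1 TPM or more whose groups did not overlap, both with and without rescaling. There were 453 such genes on the nestling side and 171 on the adult side. The 12 with the largest difference on each side had no symbol, so they are given by their identifiers in the annotation, and their products are not named. Since they were picked for their size, their differences are a description. None had an adjusted p below 0.857.

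The 12 nestling-higher genes differed by 2.19 to 3.84 on the log2 scale. Ega_R004585 had the smallest p of all 14841 genes. It was at 313, 381 and 266 TPM in nestlings 1 to 3 and 71.0, 34.0 and 67.5 TPM in adults 4 to 6. Every nestling was well above every adult, the nestlings were within a narrow range, and adult 5 was the lowest bird. The difference was 2.53 ± 0.32 (limma adjusted p = 0.857), 2.41 after rescaling, and 2.19 to 2.72 when any 1 bird was left out. The gene lies on the forward strand of scaffold 215, bases 5392130 to 5394125, with 1494 coding bases in 6 exons. All 6 exons kept the groups apart, with log2 ratios of mean coverage between 2.30 and 2.62, and 3671 read equivalents lay on it per bird on average. Its neighbours did not share this. Ega_R004584, 27031 bases before it, was at 0 in 4 birds, and Ega_R004586, 2293 bases after it, differed by 0.36.

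Ega_R009549 was at 787, 676 and 1182 TPM in nestlings and 310.1, 21.7 and 157 TPM in adults. The groups did not overlap, adult 5 was the lowest bird, and the log2 difference of 3.07 ± 0.87 became 1.95 without it. It is a single exon of 312 coding bases on scaffold 393, bases 990391 to 990702. Ega_R009548, the gene before it on the same strand, was also lowest in adult 5, at 492, 1522 and 916 TPM in nestlings and 534, 64.5 and 686 TPM in adults.

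On the reverse strand of scaffold 386, 3 neighbouring genes had adult 5 lowest and adult 6 next. Ega_R009439, 1335 coding bases in 5 exons at bases 1610283 to 1622637, was at 551, 450 and 680 TPM in nestlings and 309, 25.7 and 131 TPM in adults. Ega_R009438, a single exon of 177 bases that lies 2385 bases away, was at 256, 321 and 466 TPM in nestlings and 218, 13.4 and 73.6 TPM in adults. In both, adult 4 lay below the nestlings. Ega_R009437, 762 bases beyond, was at 476, 621 and 960.3 TPM in nestlings and 493, 31.9 and 146 TPM in adults, where adult 4 reached nestling 1. Ega_R009440 on the far side was at or near 0, with 1.01 and 0.643 TPM in nestlings 2 and 3 and 0 in the other birds.

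Ega_R008282, on scaffold 34, carried the plainest effect of 1 bird. It was at 83.2, 101 and 112 TPM in nestlings and 74.7, 1.60 and 77.4 TPM in adults. Adults 4 and 6 lay just under the nestlings and adult 5 far below, so that the difference of 2.19 became 0.37 without adult 5. Ega_R007796, on scaffold 323, was alike, at 22.7, 40.3 and 27.7 TPM in nestlings and 20.1, 0.697 and 13.1 TPM in adults (2.30, or 0.85 without adult 5).

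Ega_R008583 and Ega_R008988 kept more of their size. Ega_R008583, 9 exons and 708 coding bases on scaffold 351, was at 49.6, 69.4 and 63.4 TPM in nestlings and 30.6, 5.88 and 12.5 TPM in adults, and all 9 exons held the groups apart. Ega_R008988, 4 exons and 4053 coding bases on scaffold 369, was at 11.6, 25.0 and 32.2 TPM in nestlings and 5.56, 0.867 and 6.76 TPM in adults. Without adult 5 their differences were 1.62 and 1.76. The largest difference on this side, 3.84 ± 1.06, was that of Ega_R000966, a single exon of 165 bases on scaffold 114, at 0.577, 10.03 and 1.04 TPM in nestlings and 0, 0.165 and 0 TPM in adults. It rests on an average of 3.88 read equivalents per bird, and its difference went to 1.64 at a pseudocount of 1 TPM and to 6.15 at 0.01 TPM. The other 3, Ega_R011706, Ega_R008136 and Ega_R008370, had nestling levels of 0.924 to 8.09 TPM.

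The lowest bird had to be an adult by the choice of these genes. It was adult 5 in 11 of the 12, Ega_R000966 being the exception. Without adult 5, 2 of the 12 differed at least 4-fold (Ega_R000966 and Ega_R004585), and the differences ran from 0.37 to 4.31. Leaving out a bird could not turn these differences around, because the genes were picked with every nestling above every adult.

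Ranking by p instead of size favours genes whose birds lie close together. Beside Ega_R004585, the 5 smallest p on the nestling side belonged to Ega_R012162, Ega_R007598, Ega_R007538 and Ega_R004463. Ega_R012162, 9 exons on scaffold 511, was at 20.9, 18.8 and 14.9 TPM in nestlings and 5.76, 3.87 and 3.92 TPM in adults. Ega_R007598, 7 exons on scaffold 32, was at 35.1, 30.2 and 21.6 TPM in nestlings and 7.31, 4.81 and 11.0 TPM in adults. Ega_R007538, 14 exons on scaffold 316, was at 45.6, 30.2 and 27.5 TPM in nestlings and 12.0, 13.9 and 12.3 TPM in adults. In these 3 every nestling was far from every adult, and in Ega_R007538 adult 5 was the highest adult. Their differences were 2.00 ± 0.33, 1.95 ± 0.38 and 1.39 ± 0.28, and without adult 5 they were 1.90, 1.65 and 1.46. Ega_R004463, a single exon of 2808 coding bases on scaffold 213, differed by 1.66 ± 0.33 and by 1.35 without adult 5. The adjusted p of these 4 was 0.965.

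**Figure D4:**
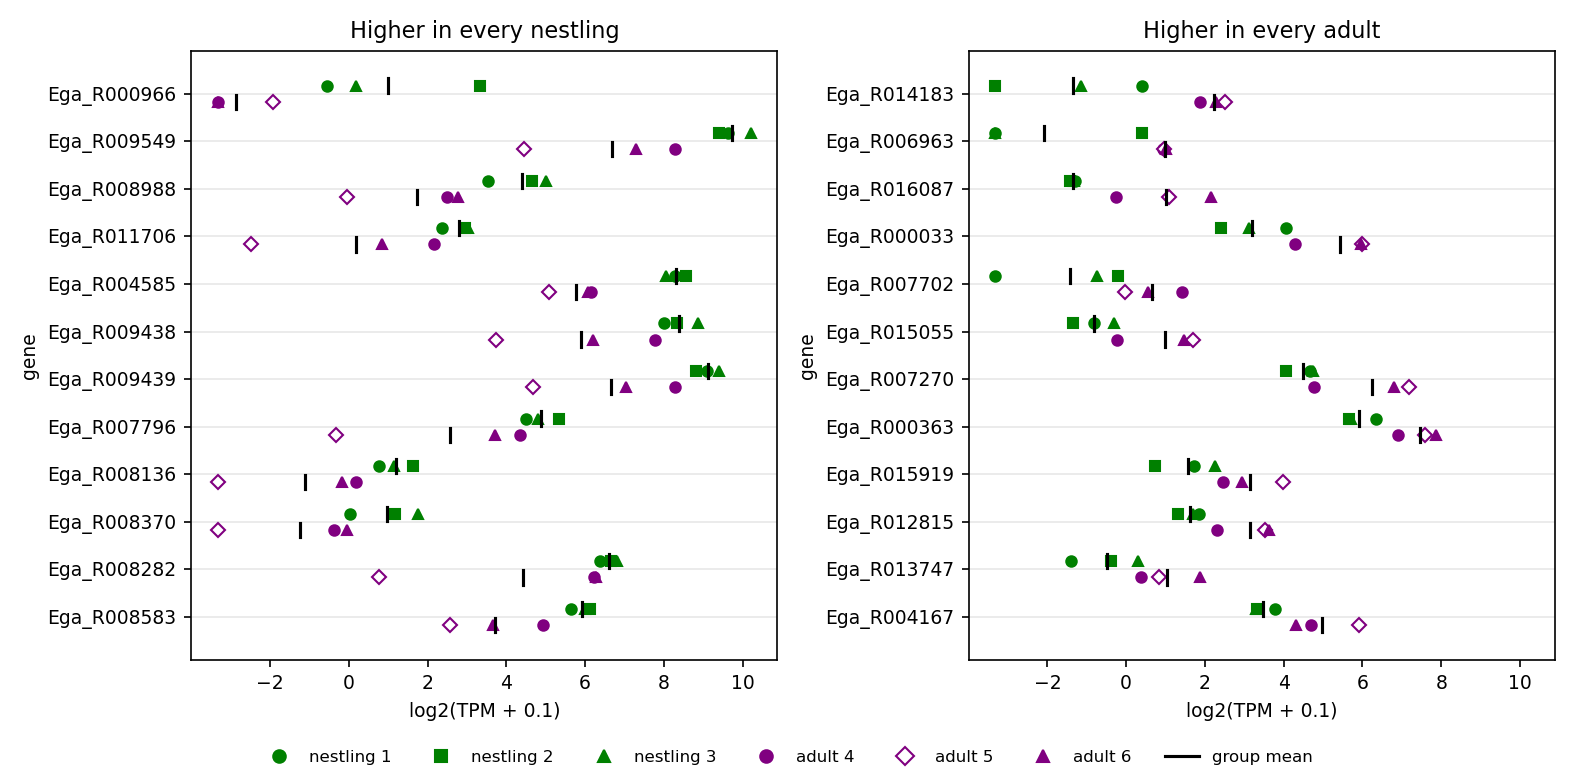
Level of the 12 genes with the largest difference in each direction, as log2(TPM + 0.1), with 1 point per bird and a bar at each group's mean. On the left the open diamond of adult 5 is the lowest point in 11 of 12 genes, and on the right adult 5 is the highest bird in 6, adult 6 in 5 and adult 4 in 1.

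The differences of the 12 adult-higher genes ran from -3.58 to -1.50, and 5 of them were at least 4-fold. They were lower in level, with a median over the 12 of 4.42 TPM against 29.7 TPM on the nestling side. The median of all genes tested, which include those averaging under 1 TPM, was 16.4 TPM. The best measured was Ega_R000363, 9 exons and 1236 coding bases on scaffold 105, bases 360929 to 373095. It was at 81.9, 50.5 and 51.9 TPM in nestlings 1 to 3 and 119, 194 and 235 TPM in adults 4 to 6. All adults lay above all nestlings, adult 6 highest. The difference was -1.55 ± 0.31 (limma adjusted p = 0.965), between -1.83 and -1.34 when any 1 bird was left out, and all 9 exons kept the groups apart. Its neighbours Ega_R000362 and Ega_R000364 differed by 0.012 and -0.30.

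Ega_R007270, 10 exons and 1116 coding bases on scaffold 30, was at 25.5, 16.6 and 26.8 TPM in nestlings and 27.1, 144 and 112 TPM in adults. Adult 4 was level with the nestlings and adults 5 and 6 stood high, which gave a difference of -1.75 ± 0.60. Ega_R000033, a single exon of 225 bases on a contig with no other annotated gene, was at 16.5, 5.22 and 8.62 TPM in nestlings and 19.6, 63.6 and 62.3 TPM in adults. Ega_R004167, 5 exons on scaffold 204, was at 13.5, 9.96 and 9.69 TPM in nestlings and 25.7, 59.7 and 19.8 TPM in adults. Adult 4 was the adult nearest to the nestlings in the first 2 of these genes, and adult 6 in the last.

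Ega_R014183, 5 exons and 459 coding bases on scaffold 658, had the largest adult-higher difference, -3.58 ± 0.91. It was at 1.22, 0 and 0.353 TPM in nestlings and 3.54, 5.62 and 4.78 TPM in adults. The adults were close to each other, all 5 exons kept the groups apart, and leaving out 1 bird gave -4.45 to -2.59. Ega_R016087, 9 exons on scaffold 891, was at 0.308, 0.273 and 0.297 TPM in nestlings and 0.743, 2.03 and 4.38 TPM in adults. Here the nestlings were nearly equal and the adults spread widely.

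Ega_R006963 and Ega_R007702 were listed at 0 in at least 1 nestling and reached at most 2.59 TPM, with 3.55 and 2.15 read equivalents per bird. Ega_R015055, Ega_R015919, Ega_R012815 and Ega_R013747 had adult levels of 0.754 to 15.7 TPM and differences of -1.80 to -1.52. Ega_R015919 and Ega_R013747 are single exons that lie within a longer gene on the opposite strand. No source used here states whether the counting used strand, so reads of either gene could have been assigned to the other.

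**Figure D5:**
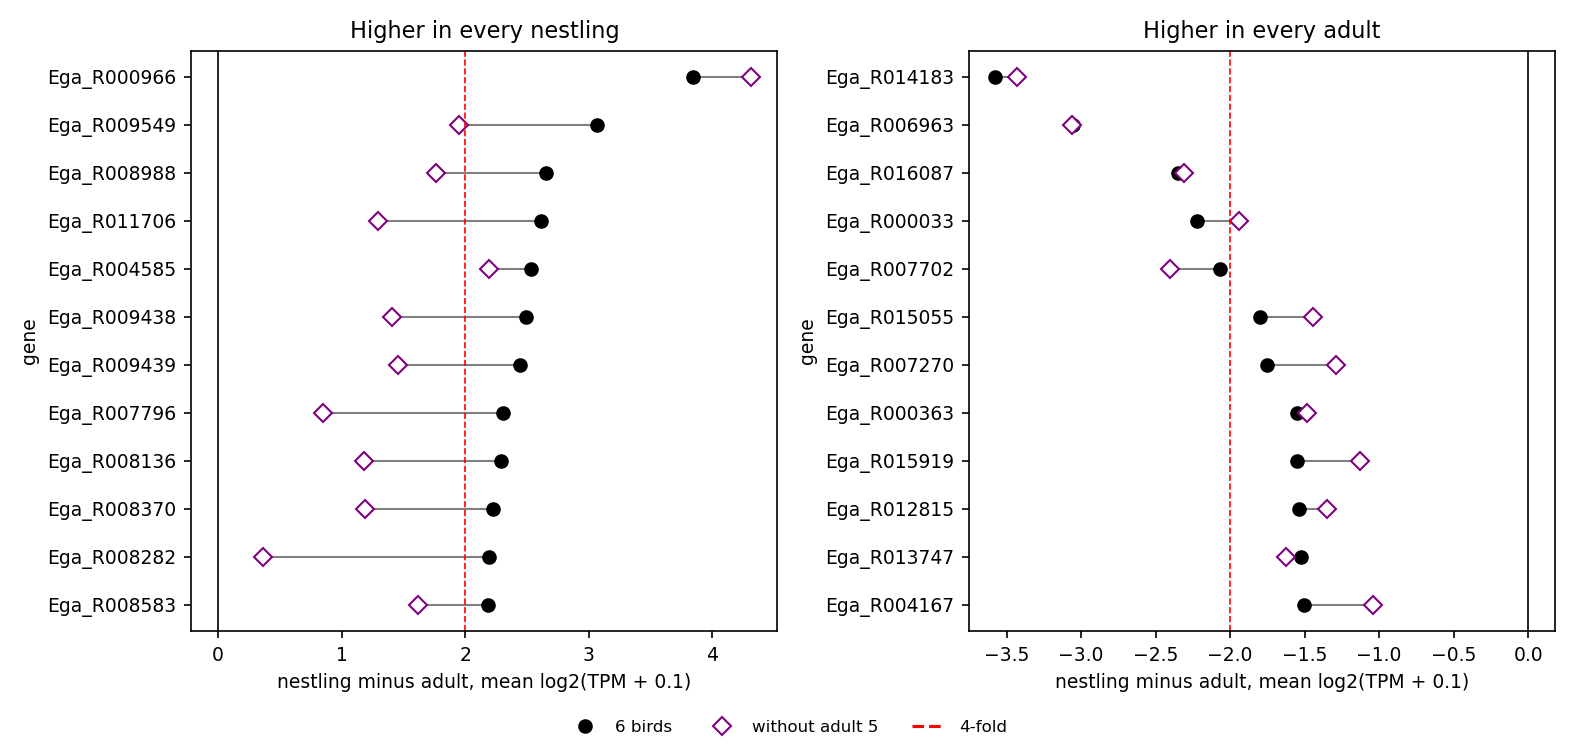
Difference between nestling and adult mean log2(TPM + 0.1) of the same 24 genes with all 6 birds (filled circles) and without adult 5 (open diamonds), with a dashed line at 4-fold. On the nestling side 2 of 12 genes lie beyond 4-fold without adult 5; on the adult side 4 do, against 5 with all birds.

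The positions of the 24 genes were compared with those of their neighbours. The nestling-higher genes lay on 11 scaffolds and the adult-higher genes on 12. Of 19 neighbours tested beside the nestling-higher genes, 16 had a difference in the same direction and 6 of these at least 2-fold, with a median of 0.39 against 0.14 over all genes. Ega_R009438 and Ega_R009439 of the scaffold 386 block count here as each other's neighbour. Both had been picked as nestling-higher, so their direction and size were fixed by the choice. How often the neighbours of other genes have a higher mean in nestlings was not counted. Beside the adult-higher genes, 8 of 20 neighbours had a difference in the same direction, with a median of 0.079. The only neighbour with a symbol was CHD7, a chromatin remodeller, 210938 bases from Ega_R008370, with a difference of 0.38. Over 8587 pairs of adjacent genes, the differences of the 2 genes had a Pearson correlation of 0.15 and a Spearman correlation of 0.11, given as a description since all pairs share the same birds.

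The exons of the 24 genes mostly moved together. This largely follows from the choice of the genes by their level, since exon and gene levels come from the same reads. In a single-exon gene the exon is the gene itself, and no such count over other genes is given. On the nestling side 48 of 49 exons had a higher mean coverage in nestlings, and in 37 the groups did not overlap. On the adult side all 47 exons had a higher mean in adults, and in 35 the groups did not overlap. The exon that ran the other way was in Ega_R008370, a gene of at most 3.26 TPM. The nestling-higher genes had a median of 4.5 exons and 972 coding bases, and the adult-higher genes 2 exons and 525 coding bases, against 7 exons and 1143 coding bases over all genes averaging 1 TPM or more. Single-exon genes were 3 and 5 of the 12, against 9.39% of those genes.

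Across all 14841 genes, the share with every nestling above every adult went with gene structure and also with level, and the 2 were not separated. It was 2.99% of 3211 single-exon genes, 5.47% of genes with 2 to 4 exons, 5.57% of genes with 5 to 9 exons and 7.71% of 4825 genes with 10 or more exons. By coding length it went from 3.14% under 500 bases to 8.38% at 2000 bases or more. The share with every adult above every nestling went the opposite way, from 2.71% of single-exon genes to 1.04% of genes with 10 or more exons. After rescaling it followed no such order by exons, at 3.43%, 5.12%, 4.60% and 3.13% from the fewest to the most. By coding length it was then 4.87%, 4.95%, 3.69% and 2.07% from the shortest to the longest. The nestling share kept its rise after rescaling, from 2.71% to 5.49% by exons and from 2.32% to 6.28% by coding length. The ratio of last to first exon coverage, given above, also separated the stages, and its part in these shares was not tested. By level, before rescaling, the nestling share was 2.62% under 1 TPM, 5.98% at 1 to 10, 7.20% at 10 to 100 and 4.16% at 100 TPM or more. The adult share in these classes was 2.81%, 2.06%, 1.12% and 3.54%. Genes at 100 TPM or more stood out after rescaling, with 10.02% higher in every adult and 2.04% higher in every nestling.

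A few genes were read in one stage alone. In 26 genes all nestlings were above 0 and all adults were listed at 0, and in 18 the reverse held. At 3 or more read equivalents in each bird of the stage, 3 of the 26 and 0 of the 18 were left. Ega_R001430, 3 exons on scaffold 126, was at 0.631, 0.721 and 0.286 TPM in the nestlings, from 3.31 to 5.87 read equivalents. Ega_R007468, 5 exons on scaffold 313, was at 0.310, 0.307 and 0.340 TPM, and Ega_R011589, 3 exons on scaffold 486, at 0.317, 0.236 and 0.657 TPM. A limit of 3 read equivalents equals 0.184 to 0.262 TPM for a gene of 1000 coding bases, for counting error only, so the adult zeros are not far below these levels. No fold is given, since the adults are listed at 0.

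One gene was past the threshold when a bird was left out. Without nestling 1, Ega_R015488 had a limma adjusted p of 0.0058. The size of that difference is set by the pseudocount, since both remaining nestlings are listed at 0, and is not given. It was at 473, 0 and 0 TPM in nestlings 1 to 3 and 343, 622 and 366 TPM in adults 4 to 6. Nestling 1 lay among the adults, and the other nestlings were listed at 0, so with all birds the stages overlapped. The difference over all birds was -7.99 ± 2.96 (limma adjusted p = 0.965), a size that also depends on the pseudocount because of these zeros. It is a single exon of 300 bases on scaffold 795, bases 20929 to 21228. A listed 0 at such a level in other birds can be a failed estimate, and this was not tested. It fell outside the rule for named genes and was chosen after its values were seen.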

How the data were processed

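RNA of the olfactory epithelium of 3 nestling and 3 adult little egrets was analysed. The authors used Trimmomatic on the reads, HISAT2 (version not given in the sources used here) to place them on the little egret genome, and then quantified annotated transcripts with StringTie 2.1.4, per the file headers. The TPM values the authors deposited sum to 1000000 in each bird and carry no depth. The deposited FPKM values were not used for any result. The deposited coverage of transcripts and exons is a signal per base, from which read equivalents (coverage times coding length over 150) were computed; their lowest and highest totals per bird were 10996511 and 16326012, and intervals and floors cover counting error only. No source used here says whether counting used strand. The genome was the published little egret assembly that the study cites. Positions count from 1 on the scaffolds of the deposited annotation, and coding length was a multiple of 3 in 92.6% of genes, so the gene models hold few untranslated regions. Symbols came from the list of vision-related genes that the study gives, where 257 symbols fell on 255 identifiers (PDE6G with PDE6H, and PROM1 with ROM1, share 1 each), and the OR genes from its receptor list. No genome or sequence table was used.

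Genes were tested with limma 3.58.1 in R 4.3.3 (lmFit, eBayes with a trend) on log2(TPM + 0.1), a scale that understates the change of low genes, over all genes averaging 0.02 TPM or more, adjusted over these by Benjamini-Hochberg, with a threshold of 0.05. The study states no test between stages. Measures with 1 value a bird went through a two-sided exact permutation test (scipy 1.17.1). The scripts were tested on simulated data. Named genes were the 12 with the largest difference in each direction and the 5 with the smallest p. These averaged 1 TPM or more, and their groups did not overlap, both with and without median-ratio rescaling. Added to these were the 10 symbol-paired genes averaging 1 TPM or more with the smallest p in each direction. The neighbours on the scaffold and the markers of cell types were named as well. The members, gene lists and tests were chosen with earlier results of these data known. Alternatives were rescaling, quantile normalization, pseudocounts of 0.01 and 1 TPM, other filters, other variance models, voom and leaving out each bird. The birds of a stage are separate animals, so p-values measure the spread between animals.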

Additional observations from a re-analysis of the deposited data

How the results depend on the processing

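No gene passed the threshold under any setting with all 6 birds (rescaling, quantile normalization, other pseudocounts, filters and variance models, voom), and leaving out 1 bird gave 1 call, Ega_R015488 without nestling 1, so the count in nestlings was 0 to 0 and in adults 0 to 1. The 48 named genes kept their direction in all 576 alternative values, with 0 past the threshold and a lowest adjusted p of 0.347 (limma, Benjamini-Hochberg). That direction was largely fixed by the choice of these genes, made by groups without overlap or by the smallest p. The balance between the directions depended on the scaling. Rescaling gave 197 genes at an unadjusted p below 0.05 and 590 without overlap higher in adults. Quantile normalization gave 209 and 603 there, 481 without overlap higher in nestlings and a median difference of -0.013. The 4-fold counts depended on low genes. They were 82 in nestlings and 70 in adults at a pseudocount of 0.01 TPM, 6 and 1 at 1 TPM, and 17 and 5 among genes averaging 1 TPM or more, where 46 genes had an unadjusted p below 0.05 with adults higher. At a pseudocount of 1 TPM, 2 symbol-paired genes had an unadjusted p below 0.05.

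When each bird was left out in turn, which leaves 2 birds in a stage and makes groups without overlap more frequent, the unadjusted counts were 179 to 724 higher in nestlings and 66 to 357 in adults, the highest without adult 4. The counts without overlap were 1084 to 2569 and 490 to 1108, those at 4-fold 38 to 233 and 41 to 87, and the median difference 0.038 (without adult 5) to 0.21. Of the 249 symbol-paired genes, with both directions together, 1 to 17 had an unadjusted p below 0.05, 27 to 62 had no overlap and 0 passed the threshold. The counts over all 14841 genes, given above by direction, also moved when a bird was left out. These counts are therefore no result about the symbol-paired genes. The difference in exon ratio was -0.13 to -0.076, that in genes above 0 was -99.5 (without nestling 3) to 186, and that in the share of the 10 highest genes -3.74 to 0.756 (without adult 5). With 3 birds a stage, an exact permutation test cannot give a p below 0.1. No paired analysis was possible because nestlings are numbered 1 to 3 and adults 4 to 6 and share no number. TPM keeps no depth, and for a gene of 1000 coding bases 3 read equivalents equal 0.184 to 0.262 TPM, a limit that is higher in shorter and lower in longer genes.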
